A study of Mus musculus with 3 samples.

Results

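The 6 genes G0s2, Pnpla2, Lpin1, Cidec, Plin2 and Lipe act in the storage of triglyceride in lipid droplets and in its release. They were chosen by gene symbol, with earlier results of these data known. Every probe set of the deposited table annotated to one of them was taken, which gave 1 probe set for each gene, 6 genes of the 8251 that the table held under a single symbol. RNA from liver, where these genes handle the fat that hepatocytes take up or make, was hybridised to 3 Affymetrix arrays, 1 for each of 3 diets. All mice were male, lacked apolipoprotein E, had a C57BL/6JxOLA129 background and were 3 months old when they were put on a diet for 12 weeks. The t10,c12-CLA diet contained 1.0% by weight of the trans-10,cis-12 isomer of conjugated linoleic acid (CLA), the c9,t11-CLA diet the same amount of the cis-9,trans-11 isomer, and the control diet the same amount of linoleic acid. The number of mice assigned was 9 for t10,c12-CLA, 10 for c9,t11-CLA and 10 for control, and no source used here says whether an array held RNA of 1 mouse or of several. The design text describes semi-purified diets with 30% of energy from fat, whereas the sample descriptions name a western diet, and this was not resolved.

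Hepatocytes keep surplus fatty acids as triglyceride in lipid droplets, which are coated by proteins of the perilipin family. Adipose triglyceride lipase, the product of Pnpla2, removes the first fatty acid from a stored triglyceride and is inhibited by the small protein encoded by G0s2. In liver, fatty acids released by this lipase can be oxidised and can feed ligands to the nuclear receptor PPARA, and loss of the lipase or excess of its inhibitor is known to cause fat accumulation. Lipin 1, from Lpin1, makes the diacylglycerol from which triglyceride is built and also acts in the nucleus as a coactivator of PPARA.

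On both CLA diets the lipase gene Pnpla2 and the phosphatase gene Lpin1 were more than 2-fold higher than on the control diet, and the lipase inhibitor gene G0s2 was more than 3-fold lower. The droplet coat gene Plin2 and the second lipase gene Lipe differed by less than 2-fold in each comparison. The droplet fusion gene Cidec had a signal above the floor used here, the median of all signals, on the t10,c12-CLA array alone. With 1 array per diet no difference has a replicate check, no test could be made and no p-value is given, so the precision of each value is limited by the number of arrays. The comparisons asked how each isomer, given at the same dose and for the same time, differed from linoleic acid and from the other isomer.

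The 250 bases before the annotated transcription start are shown for the 3 genes that were past 2-fold on both CLA arrays, since the results turns on them. They are RefSeq sequences of build GRCm38.p6, written on the strand of the gene. The G0s2 window is chr1:193273189-193273438 on the minus strand, the Pnpla2 window chr7:141454938-141455187 on the plus strand and the Lpin1 window chr12:16610967-16611216 on the minus strand. The capitals mark matches to the searched motifs.
G0s2: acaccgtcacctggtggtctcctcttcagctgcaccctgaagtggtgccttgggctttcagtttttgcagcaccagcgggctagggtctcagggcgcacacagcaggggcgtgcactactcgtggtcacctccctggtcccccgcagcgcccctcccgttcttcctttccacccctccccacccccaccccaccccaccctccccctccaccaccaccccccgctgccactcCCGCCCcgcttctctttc
Pnpla2: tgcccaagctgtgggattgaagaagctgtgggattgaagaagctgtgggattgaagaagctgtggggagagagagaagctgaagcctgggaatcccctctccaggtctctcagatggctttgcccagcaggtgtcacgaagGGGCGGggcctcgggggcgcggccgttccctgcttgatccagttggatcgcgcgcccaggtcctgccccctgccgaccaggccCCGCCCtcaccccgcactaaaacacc
Lpin1: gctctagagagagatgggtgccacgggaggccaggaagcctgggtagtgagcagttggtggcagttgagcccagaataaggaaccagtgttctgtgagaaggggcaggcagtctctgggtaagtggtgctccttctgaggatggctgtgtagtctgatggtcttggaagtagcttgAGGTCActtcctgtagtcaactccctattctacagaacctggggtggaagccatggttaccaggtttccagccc

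Both strands were searched for 5 motifs, which can overlap one another. The nuclear receptor half-site AGGTCA was found in the Lpin1 window, 74 to 69 bases before the start, and in that of Plin2, 218 to 213 bases before it on the opposite strand. Of all 32851 windows of this length, 14.0% held the half-site. The direct repeat of that half-site with 1 base between, AGGTCANAGGTCA, a form of the PPAR response element, was in no window of the 6 genes and in 0.0335% of all windows. The GC box GGGCGG was in the G0s2 window once, in that of Pnpla2 at 2 places and in that of 1 of 2 Lipe starts, against 32.7% of all windows. CACGTG, the E-box, was in the same Lipe window and in 6.02% of all, and CCAAT was in the Plin2 window and in 33.8% of all. Neither of the 2 Cidec starts had a match. A match of letters describes the sequence and is not a binding site, and binding was not measured. The Lpin1 start in the table lies inside the annotated span of the gene, so it is not the only start that transcripts can use.

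The values are MAS5 signals, a hybridisation intensity per probe set on a linear scale. The arrays had been scaled before deposit to nearly the same trimmed mean, 1501. A floor was set at 490.3, the median of all signals on the 3 arrays, since low signals cannot be told from background here. A probe set counted as measured in a comparison when it was above the floor on both arrays, and a difference counted as called at a log2 size of 1, which is 2-fold. Of the 6 genes, 5 were above the floor on every array, and Cidec was above it on 1. As a measure of technical spread, pairs of measured probe sets of the same gene were compared. They gave an SD of a single log2 difference of 0.40 for t10,c12-CLA over control, over 566 pairs, 0.51 for c9,t11-CLA over control, over 529 pairs, and 0.51 between the isomers, over 553 pairs. This spread leaves out how mice on the same diet vary. Both probe sets of a pair lie on the same arrays, so error that an array's probe sets share is left out too. Over all measured probe sets the SD of the log2 difference was 0.47, 0.54 and 0.55 in the same order. In bulk liver RNA, fewer cells of a type and less RNA per cell cannot be told apart.

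The 9 hepatocyte markers on the array were all above the floor on each array. Their signals summed to 254092 for t10,c12-CLA, 458913 for c9,t11-CLA and 253442 for control. The markers did not move together, since on c9,t11-CLA 6 were above control and 3 below. Alb had 101163 on c9,t11-CLA against 28437 on control, and Ttr had 9384.5 against 17983. The ratio of the 3′ to the 5′ Gapdh signal, a sign of RNA integrity, was 0.78 on t10,c12-CLA, 0.98 on c9,t11-CLA and 1.06 on control. The same ratio for beta-actin was 1.35, 1.89 and 1.40 in that order, highest on c9,t11-CLA. The part of RNA integrity or of the hepatocyte sum in the results that follow was not tested. The disrupted gene Apoe had signals of 4288, 8695 and 6570 on the t10,c12-CLA, c9,t11-CLA and control arrays. Without a wild-type liver these do not check the genotype.

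Pnpla2 encodes adipose triglyceride lipase, the enzyme that starts triglyceride hydrolysis. Its signal was 16107 on t10,c12-CLA and 15840 on c9,t11-CLA, against 6807 on control. The CLA arrays lay close together, and control lay below both. The log2 difference was 1.24 for t10,c12-CLA over control, 2.37-fold, at rank 58 from the top of 5584 measured probe sets. For c9,t11-CLA over control it was 1.22, 2.33-fold, with Pnpla2 at rank 86 from the top of 5480. These differences were 3.12 and 2.41 times the technical spread. Between the isomers the log2 difference was 0.02, well inside that spread of 0.51.

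G0s2 encodes the inhibitor that binds adipose triglyceride lipase and blocks its activity. Its signal was 2065 on t10,c12-CLA and 1441 on c9,t11-CLA, against 7089 on control. Control was highest, and c9,t11-CLA was lowest. G0s2 was 3.43-fold lower on t10,c12-CLA than on control, a log2 difference of -1.78, rank 7 from the bottom of 5584 measured probe sets. On c9,t11-CLA it was 4.92-fold lower than on control, at -2.30, rank 5 from the bottom of 5480. The sizes were 4.47 and 4.54 times the technical spread, the largest among the 5 measured genes in both comparisons. Between the isomers G0s2 had a log2 difference of 0.52, higher on t10,c12-CLA, which is about 1 technical SD (1.01 times).

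This lipase and its inhibitor stood on opposite sides of control on both CLA diets. Because a scale factor of an array cancels when 2 probe sets of that array are set against each other, the difference between their log2 differences is free of array scaling. Pnpla2 minus G0s2 was 3.02 on t10,c12-CLA over control, an 8.13-fold shift of the signal ratio, and 3.52 on c9,t11-CLA over control, an 11.4-fold shift. Between the isomers this quantity was -0.49, lower on t10,c12-CLA. Abhd5, which encodes the coactivator of the same lipase, had log2 differences of 0.07 on t10,c12-CLA and 0.41 on c9,t11-CLA over control. Transcript ratios were measured here, and protein amounts and lipase activity were not.

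Lipe encodes hormone-sensitive lipase, which acts on the diacylglycerol that adipose triglyceride lipase leaves. Its signal was 928 on t10,c12-CLA, 1006 on c9,t11-CLA and 765 on control, all within about 2 times the floor (1.56 to 2.05 times). The CLA arrays were both above control. The log2 differences were 0.28 on t10,c12-CLA over control, 0.39 on c9,t11-CLA over control and -0.12 between the isomers, each below 1 technical SD. Of all measured probe sets, 24.9% and 23.7% were as high in the comparisons of t10,c12-CLA and c9,t11-CLA with control.

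Lpin1 encodes lipin 1, a phosphatidate phosphatase that makes diacylglycerol and a nuclear coactivator. Its signal was 7588 on t10,c12-CLA and 7994 on c9,t11-CLA, against 3117 on control. As with Pnpla2, the CLA arrays lay close together and above control. The log2 difference over control was 1.28 on t10,c12-CLA, 2.43-fold, rank 49 from the top of 5584, and 1.36 on c9,t11-CLA, 2.56-fold, rank 56 of 5480. These were 3.23 and 2.69 times the technical spread. Between the isomers Lpin1 had a log2 difference of -0.08. The log2 differences of Pnpla2 and Lpin1 lay 0.04 apart on t10,c12-CLA and 0.14 apart on c9,t11-CLA (Pnpla2 minus Lpin1, -0.04 and -0.14), although their signals come from different probe sets.

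Plin2 encodes perilipin 2, the main droplet coat protein of hepatocytes, which is stable only on droplets and is itself a target of PPARA. Its signal was 25703 on t10,c12-CLA, 15783 on c9,t11-CLA and 22813 on control. Here the c9,t11-CLA array was the low one, and the other two lay closer together. The log2 difference was 0.17 on t10,c12-CLA over control and -0.53 on c9,t11-CLA over control, which are 0.43 and 1.05 times the technical spread. Between the isomers Plin2 was 1.63-fold higher on t10,c12-CLA, a log2 difference of 0.70. It was the largest difference between the isomers among the 5 measured genes, at 1.38 times the technical spread, and 8.12% of measured probe sets were as high.

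Cidec encodes a droplet protein that moves lipid from small to large droplets, and it is abundant in white fat and known to be induced in fatty liver. Its signal was 905 on t10,c12-CLA, 38.8 on c9,t11-CLA and 43.6 on control. Only the t10,c12-CLA signal was above the floor, at 1.85 times it, and the floor was 12.6 and 11.2 times the c9,t11-CLA and control signals. On t10,c12-CLA Cidec was therefore at least 1.85-fold higher than on either other diet, and c9,t11-CLA and control were not compared because both were below the floor. The bound depends on the floor. On the log2 scale it was 0.88 here and 2.64 with a floor at the 25th percentile of signals, and with a floor at the 75th percentile Cidec was above it on no array. Of 12422 probe sets, 266 were above the floor on the t10,c12-CLA array alone, 2.14%.

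Since Cidec is also an adipocyte gene, markers of fat cells are given beside it. Of 6 adipocyte markers on the array, 3 were above the floor on t10,c12-CLA, 3 on c9,t11-CLA and 2 on control. Fabp4, which macrophages also express, had signals of 798 on t10,c12-CLA, 529 on c9,t11-CLA and 373 on control. The adiponectin gene Adipoq had 396.5, 300.1 and 256.6 in the same order, and the glucose transporter gene Slc2a4 had 362.5, 210.4 and 135.7. By their brightest probe sets these 3 were highest on t10,c12-CLA. The signals of Adipoq, Slc2a4 and the resistin gene Retn were below the floor on every array. By its brighter probe set, the leptin gene Lep was lowest on t10,c12-CLA, with 1414, 2886 and 2488 on t10,c12-CLA, c9,t11-CLA and control. A dimmer Lep probe set had 367.6, 285.7 and 291.6 in the same order, highest on t10,c12-CLA but below the floor on every array. The summed adipocyte signal was 13338 on t10,c12-CLA, 17720 on c9,t11-CLA and 25758 on control, most of it from Car3, a gene that male liver also expresses. Without Car3 it was 3065, 4154 and 3338 in the same order, with Lep the largest part. Sums for macrophages and stellate cells were highest on t10,c12-CLA. The 12 macrophage markers summed to 108699, 68608 and 82082, with 11 above the floor on each array. The 8 stellate cell markers summed to 32379, 19627 and 19128, with 7, 6 and 7 above the floor. Without Bgn, the brightest of them, the sums were 11945, 8223.5 and 10085.5 in the same order. The part of any of these cells in the Cidec signal was not tested.

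**Figure D1:**
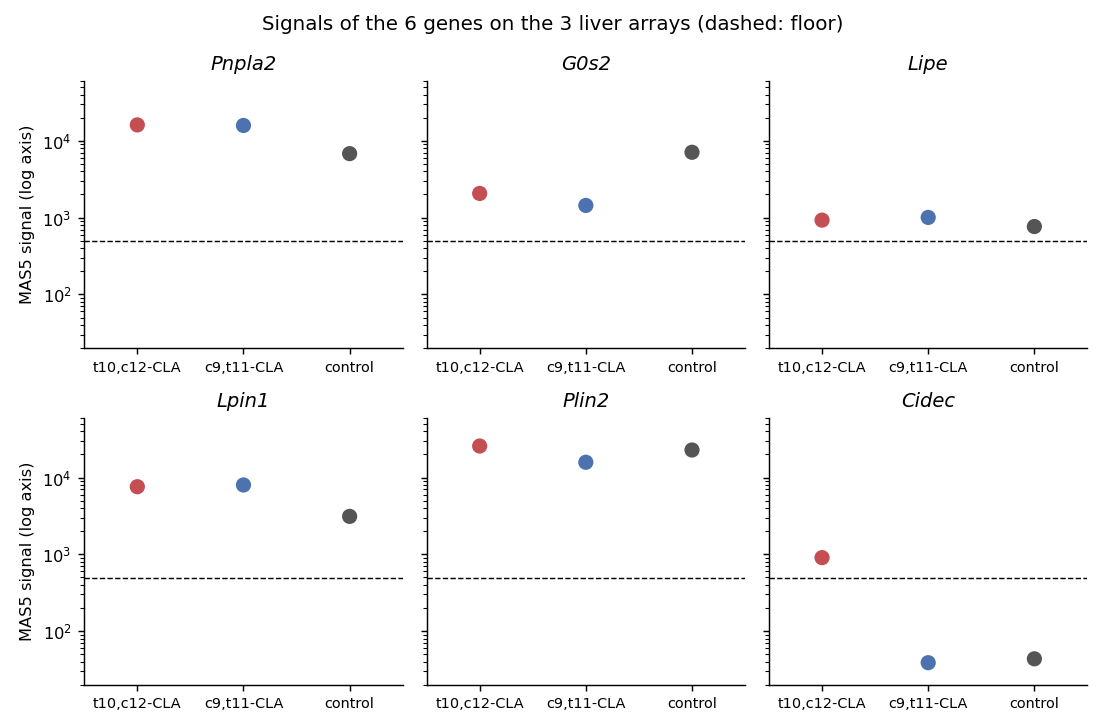
MAS5 signal (log axis) of each of the 6 genes on the t10,c12-CLA, c9,t11-CLA and control arrays, 1 point per array, with the floor of 490.3 as a dashed line. Pnpla2 and Lpin1 are higher on both CLA arrays than on control, G0s2 is lower on both, and Cidec is above the floor on t10,c12-CLA alone.

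Against each control comparison, 2 of the 5 measured genes were called higher and 1 lower. The genes were chosen with earlier results of these data known, so the shares over all probe sets beside these counts are a description only. Over all measured probe sets, 2.18% were called higher and 1.90% called lower on t10,c12-CLA than on control. On c9,t11-CLA these shares were 3.25% and 2.81%. For t10,c12-CLA over control these were 122 higher and 106 lower calls, or 94 and 149 if the arrays were given equal medians. For c9,t11-CLA over control they were 178 and 154, or 102 and 284 with equal medians. The calls were Pnpla2 and Lpin1 higher and G0s2 lower in each. The comparisons share the control array, so a chance value there would appear in both. Between the isomers 0 of 5 measured genes were called, against 3.47% of probe sets higher and 2.73% lower (193 and 152, or 259 and 97 with equal medians). With 1 array each, this does not show that the isomers act alike on these genes. The median log2 difference of the 5 genes was 0.28 on t10,c12-CLA over control, 0.39 on c9,t11-CLA over control and 0.02 between the isomers, beside -0.01, 0.03 and -0.05 over all measured probe sets.

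**Figure D2:**
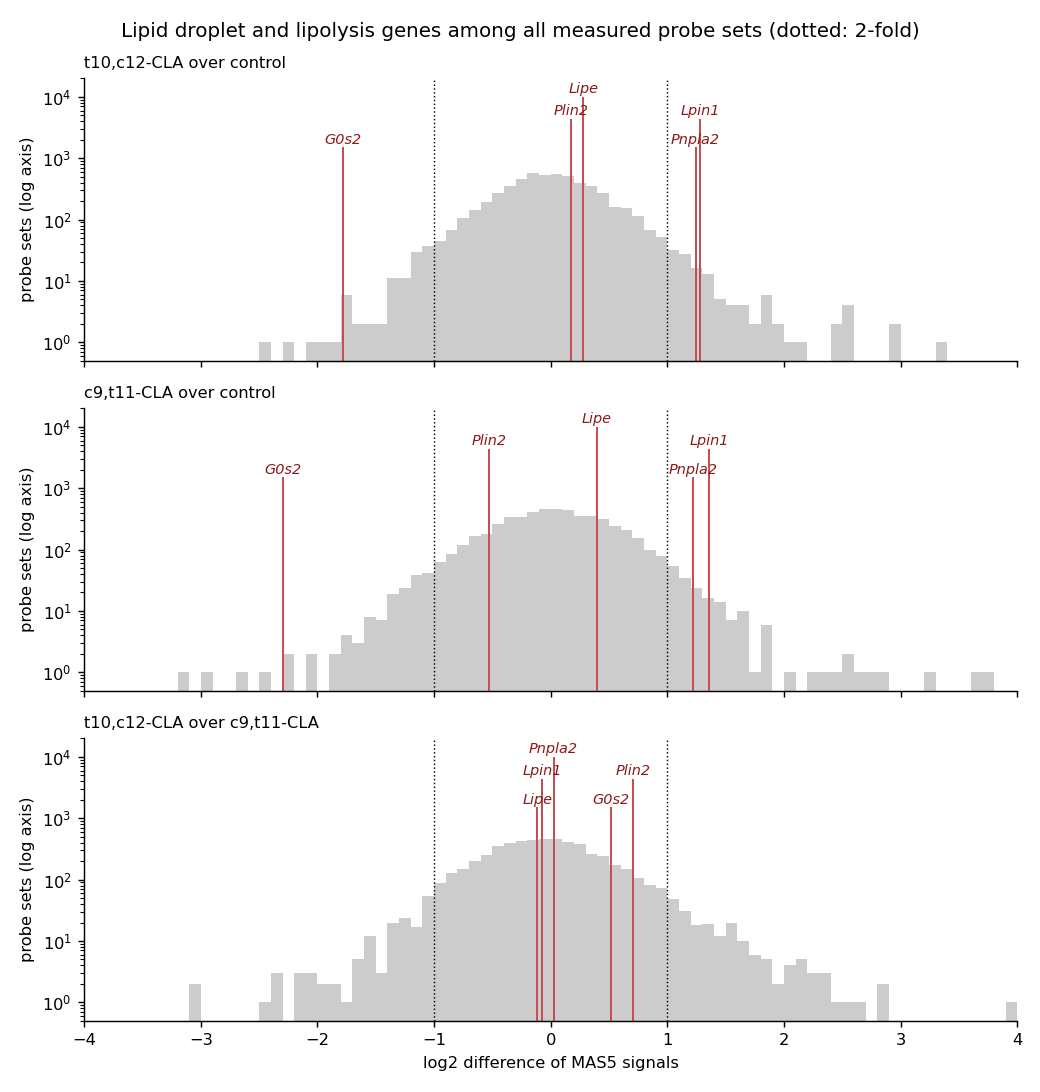
Number of measured probe sets (log axis) by log2 difference of MAS5 signals in bins of 0.1 for the 3 comparisons, with a red line at each measured gene of the set and dotted lines at 2-fold. The outermost bars also hold values beyond the axis. G0s2 lies far out on the lower side against control on both CLA diets, at -1.78 and -2.30, and the 5 genes lie between -0.12 and 0.70 between the isomers.

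The pathway around these genes was described with 4 lists, each gene by its brightest probe set. The lists of hydrolysis, droplet coat and glycerolipid synthesis include genes of the set. Their counts and medians therefore repeat values given above and are not separate from them. Of 13 listed genes of triglyceride hydrolysis, 10 were measured. On t10,c12-CLA over control 1 was at least 2-fold higher, Pnpla2, and 1 lower, G0s2, with a median log2 difference of -0.07. Both are genes of the set, and no other gene of this list was past 2-fold there. On c9,t11-CLA over control 1 was higher, Pnpla2, and 2 were lower, G0s2 and the carboxylesterase gene Ces1d, with a median of -0.72. The list holds the inhibitor gene G0s2 beside hydrolase genes, so its median does not give a direction for hydrolysis. Over all measured genes the medians were -0.01 and 0.02, with 2.05% of genes called higher and 1.87% lower on t10,c12-CLA and 2.98% and 2.78% on c9,t11-CLA. Ces1d, an endoplasmic reticulum hydrolase that mobilises triglyceride for lipoprotein assembly, had signals of 15637 on t10,c12-CLA, 8906 on c9,t11-CLA and 18217 on control. Its log2 difference on c9,t11-CLA over control was -1.03, and another probe set of this gene stood at -0.68. Identifiers of both carry a design suffix, and that of the other probe set marks probes that may also match related genes. Without suffixed probe sets, 2 genes of this list were past 2-fold on c9,t11-CLA over control, against 3 with them.

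Other genes of this list differed by less from control. Aadac, arylacetamide deacetylase, had log2 differences over control of -0.93 on t10,c12-CLA and -0.66 on c9,t11-CLA. The carboxylesterase gene Ces1g stood at -0.70 on t10,c12-CLA and -0.78 on c9,t11-CLA, and its relative Ces3a at -0.60 and 0.19. None of these 3 was past 2-fold. The isomers differed by more than 2-fold at 2 genes of this list, both higher on t10,c12-CLA, where 3.47% of all measured genes were called higher. Lipa, the lysosomal acid lipase, had signals of 3637 on t10,c12-CLA, 1236 on c9,t11-CLA and 2422 on control, a log2 difference of 1.56 between the isomers. Mgll, monoglyceride lipase, which completes triglyceride breakdown, had 7779, 2845 and 5032 on the t10,c12-CLA, c9,t11-CLA and control arrays, 1.45 between the isomers. A dimmer Mgll probe set pointed the other way, with 349 on t10,c12-CLA, 707 on c9,t11-CLA and 253 on control, only the second of them above the floor.

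Of 15 listed genes of droplet coat and assembly, 9 were on the array and 5 were measured against control. On t10,c12-CLA none was past 2-fold, and the median log2 difference was 0.06. On c9,t11-CLA the median was -0.31 and 1 was lower, Hsd17b11, a droplet-associated dehydrogenase, with signals of 19361 on t10,c12-CLA, 9982 on c9,t11-CLA and 20235 on control. Its log2 difference on c9,t11-CLA over control was -1.02, and with quantile normalization no gene of this list was past 2-fold. Plin2 had its lowest signal on the c9,t11-CLA array too. Cideb, the relative of Cidec that is the usual form in hepatocytes, had 21783 on t10,c12-CLA, 27176 on c9,t11-CLA and 20929 on control, all of them far above the floor. Bscl2, the gene of seipin, which acts in droplet formation, stood at 0.15 on t10,c12-CLA and 0.18 on c9,t11-CLA over control, and Rab18, a droplet GTPase, at -0.21 and -0.31. Plin4, another perilipin gene, had 498.6 on t10,c12-CLA, 66.8 on c9,t11-CLA and 320.5 on control, so that it was above the floor on t10,c12-CLA alone and only just. Cidea had 423, 160.7 and 421.2 in the same order, below the floor on every array and nearly equal on t10,c12-CLA and control. Cav1 was highest on c9,t11-CLA, with 567.6, 726.3 and 469 by its brightest probe set and 28, 724.7 and 337.5 by another. Its log2 difference between the isomers was -0.36 by the brightest. Between the isomers 6 were measured, with none past 2-fold and a median of 0.04. Over all measured genes the isomer median was -0.05, with 3.47% called higher and 2.56% lower. The medians and shares against control are those given for hydrolysis.

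Of 16 listed genes of glycerolipid synthesis 8 were measured, and Lpin1 was past 2-fold against control on both diets, as 1 of 8. The other 7 had log2 differences under 1 in size. Gpam, the acyltransferase that starts the pathway, stood at 0.36 on t10,c12-CLA and -0.03 on c9,t11-CLA over control. The acyltransferase genes Agpat3 and Agpat5, which act just before lipin, stood at 0.38 and -0.59 on t10,c12-CLA and at 0.28 and -0.02 on c9,t11-CLA. Lpgat1, another acyltransferase gene, stood at -0.06 on t10,c12-CLA and -0.55 on c9,t11-CLA. The list medians were 0.14 on t10,c12-CLA and 0.00 on c9,t11-CLA over control, and Lpin1 had the largest difference of the 8 in both comparisons. Between the isomers none of the 8 was past 2-fold, and the median was 0.01. Medians and shares over all measured genes are those given for hydrolysis and the droplet coat.

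Of 15 listed regulators, 6 were measured, and none was past 2-fold in any comparison by its brightest probe set. With other settings 1 was past it, on c9,t11-CLA over control with quantile normalization, on t10,c12-CLA over control with a floor at the 25th percentile or without suffixed probe sets, and between the isomers with that floor. Their medians were 0.17 on t10,c12-CLA over control, 0.15 on c9,t11-CLA over control and -0.03 between the isomers. Over all measured genes the medians were -0.01, 0.02 and -0.05 in the same order. Calls were 2.05%, 2.98% and 3.47% of genes higher and 1.87%, 2.78% and 2.56% lower. Ppara, which controls genes of fatty acid use, stood at 0.16 on t10,c12-CLA and -0.28 on c9,t11-CLA over control. Cebpb, a transcription factor gene of the fasting and inflammatory responses, had the largest differences against control among the 6, taken by their brightest probe sets, with signals of 14223 on t10,c12-CLA, 17553 on c9,t11-CLA and 8864 on control. Its log2 differences over control were 0.68 and 0.99. Rxra, the partner receptor of PPARA, stood at 0.49 on t10,c12-CLA and 0.46 on c9,t11-CLA by its brightest probe set and at 1.03 and 0.96 by another. Nr1h3, the sterol-sensing receptor LXR alpha, stood at -0.29 and -0.59. Irs2, an insulin signalling adaptor known to be repressed by insulin in liver, had 988 on t10,c12-CLA, 304.5 on c9,t11-CLA and 228.8 on control. Like Cidec it was above the floor on the t10,c12-CLA array alone, and it was at least 2.02-fold higher there than on either other array. Pparg, a regulator of Cidec in fatty liver, was below the floor on all arrays, with 402.9 on t10,c12-CLA, 48.3 on c9,t11-CLA and 313.1 on control. Among the other regulators below the floor on all arrays, Ppargc1a and Nr3c1 were highest on t10,c12-CLA. Ppard, Insr and Irs1 were highest on c9,t11-CLA.

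**Figure D3:**
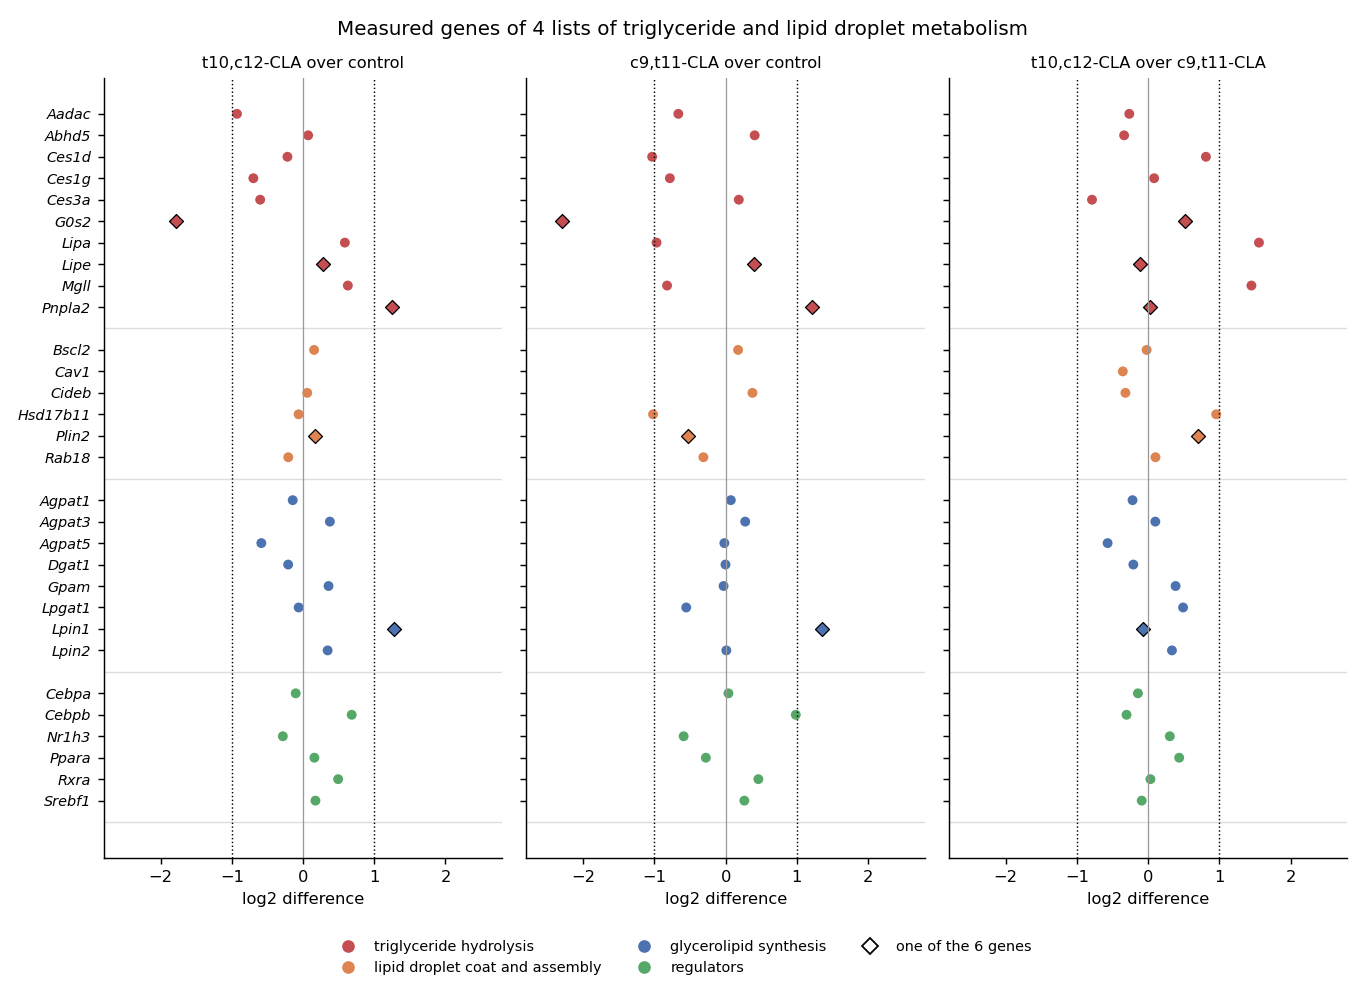
Log2 difference of MAS5 signals of the measured genes of 4 lists in the 3 comparisons, 1 point per gene by its brightest probe set, with dotted lines at 2-fold and diamonds for genes of the set. G0s2, Pnpla2 and Lpin1 lie past 2-fold in both control comparisons, and between the isomers Lipa and Mgll lie past it at 1.56 and 1.45.

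Likeness to other genes was measured as the distance between pairs of log2 differences over control, on t10,c12-CLA and c9,t11-CLA, among 4153 other genes above the floor on all 3 arrays. For G0s2 no gene lay within 0.25, and the nearest were Id2, at a distance of 0.95, Cfhr2 at 0.99 and Oat at 1.06. Id2, an inhibitor of helix-loop-helix transcription factors, had log2 differences of -1.72 on t10,c12-CLA and -1.35 on c9,t11-CLA. For Pnpla2, 10 genes lay within 0.25, the nearest being Noct at 0.02, Btg2 at 0.05 and Atp9a at 0.06. Noct, the gene of the rhythmic protein nocturnin, had signals of 4960 on t10,c12-CLA, 4797 on c9,t11-CLA and 2090 on control. For Lpin1, 8 genes lay within 0.25, the nearest being Lcn2 at 0.06, Rnf26 at 0.07 and Qsox1 at 0.10. For Lipe and Plin2, whose differences were small, 433 and 205 genes lay within 0.25. The nearest to Lipe were Guca1a, Fbxw5 and Trappc10, and to Plin2 Lgals3bp, Ap3s1 and Capza2. Each distance rests on 3 arrays.

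Each gene of the set had a single probe set, so no second probe set could be compared with it. The log2 differences were computed again with other scalings, floors, a pseudocount and without probe sets that carry a design suffix. For a gene measured in a comparison only the scalings and the pseudocount could change the value. The other settings return the reported value by construction. Over these settings the difference over control for Pnpla2 ran from 1.15 to 1.25 on t10,c12-CLA and from 1.02 to 1.29 on c9,t11-CLA. For Lpin1 it ran from 1.19 to 1.28 and from 1.16 to 1.42. For G0s2 it ran from -1.87 to -1.75 on t10,c12-CLA and from -2.49 to -2.26 on c9,t11-CLA, where the signal was above the floor on both arrays. Between the isomers the sign of the small differences of Pnpla2 and Lpin1 depended on the setting, with ranges of -0.04 to 0.13 and of -0.14 to 0.03. Plin2 stayed higher on t10,c12-CLA than on c9,t11-CLA, at 0.70 to 0.81.

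**Figure D4:**
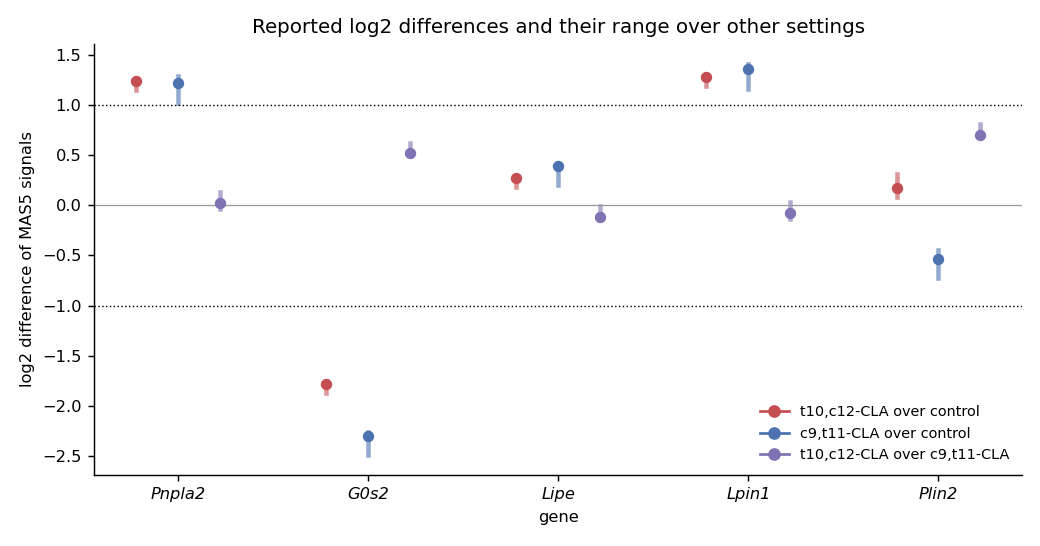
Log2 difference of MAS5 signals of the 5 genes measured on all arrays, with points for the values as reported and bars for the lowest and highest value over the settings tried, and dotted lines at 2-fold. Only the scalings and the pseudocount could move a value. The bars of Pnpla2, Lpin1 and G0s2 stay past 2-fold against control on both CLA diets, and those of Lipe and Plin2 stay inside it.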

How the data were processed

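Liver RNA was measured on 3 Affymetrix arrays, 1 per diet, from 8 µg of total RNA each, per the labels' protocols. The deposited values are MAS5 signals, an intensity on a linear scale, per the submitters' processing notes. No source used here gives the MAS5 version. Detection calls and probe intensities were not analysed. Of 12488 probe sets, 66 array controls were left out. Symbols came from the platform annotation, updated through Entrez identifiers in a RefSeq table of GRCm38.p6. This named 10833 probe sets by 1 symbol and 396 by several, and 1193 had none in this annotation.

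Signals were used as deposited. Log2 differences were taken between arrays, with a floor at the pooled median. Where 1 array was below the floor, a bound was computed from the brighter signal over the floor. Technical spread came from 1 pair of probe sets for each gene with several. The 6 genes, the lists, the motifs and the settings were chosen with earlier results of these data known. All 6 genes are named. From the lists the text names genes past 2-fold, and up to 4 more of each list by size of difference. Plin4, Cidea, Irs2 and the regulators below the floor on all arrays were named after their values were seen. Likeness names the 3 nearest genes. Counting and the technical spread were tested on simulated data. Alternatives were equal medians, quantile normalization, floors at the 25th and 75th percentile, a pseudocount of 50, a 1.5-fold size, averaging the probe sets of a gene, and use of probe sets with no design suffix only. Calculations used Python 3.11.15 with scipy 1.17.1, pandas 2.3.3, numpy 2.4.6 and matplotlib 3.10.9.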

Additional observations from a re-analysis of the deposited data

How the results depend on the processing

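Of 307 values computed under other settings, 274 stayed within the technical spread or, for counts, within 1.5 times, and 33 did not. Part of the 274 was fixed in advance. For a gene of the set above the floor on both arrays, another floor or leaving out suffixed probe sets cannot change the log2 difference. No called difference changed sign. Equal medians moved the median log2 difference of all measured probe sets on c9,t11-CLA over control to -0.15, against 0.03 as deposited. For Cidec on t10,c12-CLA, over control and over c9,t11-CLA, the lower bound rose to 2.64 on the log2 scale with the floor at the 25th percentile (0.88 as reported), and with the 75th percentile as floor no array was above it, so no value was given. At that floor Lipe was not measured, and G0s2 was below the floor on c9,t11-CLA.

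Counts of probe sets past the fold size, higher and lower, changed as follows. At 1.5-fold they were 533 and 492 for t10,c12-CLA over control, 750 and 612 for c9,t11-CLA over control and 627 and 755 for t10,c12-CLA over c9,t11-CLA. With the floor at the 25th percentile they were 436 and 317, 726 and 513, and 593 and 604 in the same order, and with the 75th percentile as floor 51 and 48, 50 and 52, and 70 and 63. With equal medians they were 102 and 284 for c9,t11-CLA over control, and 97 were lower for t10,c12-CLA over c9,t11-CLA. In the lists, the genes past 2-fold on c9,t11-CLA over control became 5 for hydrolysis with equal medians (3 as reported), 1 for regulators with quantile normalization (0 as reported), and 2 with the 25th percentile floor or 0 with quantile normalization for the droplet coat (1 as reported). On t10,c12-CLA over c9,t11-CLA they became 1 for the droplet coat with equal medians and with the 25th percentile floor, 1 for regulators with that floor (0 as reported each), and 1 for hydrolysis with the 75th percentile floor (2 as reported). On t10,c12-CLA over control the regulators became 1 with the 25th percentile floor and 1 without suffixed probe sets (0 as reported). A floor or fold size changes by construction how many probe sets can be counted, and for the other changes the cause was not tested. No paired analysis was possible because each diet has 1 array. For the same reason no array could be left out.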
